A study of Mus musculus with 13 samples.

Results

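The RNA of hearts and of aortic endothelial cells (ECs) of wild-type mice was compared, to describe what each tissue expresses at baseline and which other cell types each preparation holds. The 7 wild-type libraries of the 13 in the series were chosen by their genotype label, 4 of hearts (heart WT 1 to 4) and 3 of aortic ECs (EC WT 1 to 3). All were *Hmox2+/+* mice, described as littermates of mice lacking *Hmox2*, the gene of the constitutive heme oxygenase, and kept in room air with no treatment or transgene. The sequenced mice are described as young, and their sex is not given in the sources used here. Heart RNA came from the frozen and pulverized whole organ. EC RNA was collected by slowly flushing a lysis reagent through the lumen of the dissected aorta, with no sorting or marker gate, so the EC label rests on the route of lysis. The RNA kits also differed between the tissues, and their effect cannot be told apart from that of tissue. Polyadenylated RNA was selected with oligo-dT for the libraries, and the authors estimated counts per transcript with Kallisto. The series text speaks of matched EC and heart samples, but the labels do not say which libraries share a mouse, and the 7 were treated as separate samples.

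The heart is driven by cardiomyocytes, which shorten when calcium released from the sarcoplasmic reticulum lets myosin of the thick filament pull on actin of the thin filament, and which burn mostly fatty acids in densely packed mitochondria. Atrial and ventricular cardiomyocytes carry different myosin light chains. ECs line every vessel: in the aorta they form a single layer on elastic sheets and smooth muscle, surrounded by an adventitia and by perivascular fat that in mice is largely brown, whereas in the heart most ECs belong to capillaries.

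Total estimated counts were 7268626 in heart WT 1, 29815090 to 31619776 in the other 3 hearts and 29996101 to 31138642 in ECs, so heart WT 1 carried the least precise values of low genes. Mitochondrially encoded genes took 41.5% ± 2.98 (SD, n = 4) of the counts in hearts and 23.8% ± 6.04 (SD, n = 3) in ECs (exact p = 0.0286 by two-sided permutation, and no smaller p is possible with 4 and 3 libraries). Only 19 to 36 genes held 50% of the counts in each heart library, against 185 to 388 in ECs. Counts were summed per gene and fitted with edgeR's quasi-likelihood test with normalization factors from the trimmed mean of M-values (TMM). A gene was called when its Benjamini-Hochberg adjusted p was at most 0.05 and its log2 fold change, heart over ECs, was at least 1 in size. Of 14777 genes tested, 5848 (39.6%) were called, of which 2506 (17.0%) were higher in heart and 3342 (22.6%) were higher in ECs, and the libraries of the groups did not overlap in 10037 (67.9%). A log2 fold change of at least 4 was reached by 456 (3.09%) of the genes tested in heart and by 508 (3.44%) in ECs. These shares are the background for every count of called genes. The coefficient of variation between libraries, beyond counting error, was 0.117 in hearts and 0.265 in ECs. Levels of a gene are TMM-normalised CPM (counts scaled to the library total), given for heart WT 1 to 4 and then for EC WT 1 to 3, and levels of different genes are compared only in TPM (transcript abundance per length) scaled by the same TMM factors, which account for length.

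Contractile genes were mostly far higher in heart. Together, the 52 listed genes of the thick and thin filaments, the Z-disc and calcium cycling held 15.4% to 16.2% of the counts that were not mitochondrially encoded in hearts, and 0.314%, 0.281% and 0.287% in EC WT 1, 2 and 3. Of the 12 most abundant genes in hearts by scaled TPM, with mitochondrially encoded genes left out, 8 were in these lists, and *Mb*, encoding the oxygen store myoglobin, and *Fabp3*, the fatty acid binding protein of heart, were among the others. The others also included *Gm29216*, which ranked 1 in both tissues, and *Gm28661*, which ranked 8 in hearts. Both stayed in the counts that were not mitochondrially encoded. Whether they took up reads of mitochondrial RNA was not tested. For the thick filament, 8 of 11 genes tested were higher in heart and 2 were higher in ECs (median log2 fold change 7.48). For the thin filament the numbers were 8 and 1 of 10 (6.72). All 16 genes of the titin, Z-disc and costamere list were higher in heart (6.39). The median over all genes tested was -0.06.

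In RefSeq's mouse promoters (GRCm38.p6), the 250 bases upstream of the start were searched on both strands for the CArG box, the site known for serum response factor, and the MEF2 box, the site known for the MEF2 factors. The contraction and calcium genes had 53 such windows of 41 genes. A CArG box was in 7 of the 53 windows (13.2%), against 1.47% of all 32851 windows, and a MEF2 box was in 5 (9.43%), against 0.508%. The boxes were in the filament and Z-disc lists: the 15 windows of the calcium cycling genes held neither, and the 11 windows of the smooth muscle markers held no CArG box and 1 MEF2 box. With the low shares over all windows, lists of 15 and 11 windows cannot show a lack of boxes. A match is a description of letters and not of binding. The boxes differ in letters, and no base was counted for both. The 4 windows printed below belong to genes that recur in the results, 3 with a CArG box and that of *Ttn* with a MEF2 box, and were picked after their values were seen. Each is written 5′ to 3′ on the strand of its gene, its last base adjoins the start, and the box is in capitals. The box ended 37 bases before the start of *Actc1*, 75 before *Myl3*, 51 before *Myl7* and 156 before *Ttn*. The windows are at chr2:114052876-114053125 (minus strand, *Actc1*), chr9:110763428-110763677 (plus, *Myl3*), chr11:5898783-5899032 (minus, *Myl7*) and chr2:76982548-76982797 (minus, *Ttn*).
Actc1 upstream: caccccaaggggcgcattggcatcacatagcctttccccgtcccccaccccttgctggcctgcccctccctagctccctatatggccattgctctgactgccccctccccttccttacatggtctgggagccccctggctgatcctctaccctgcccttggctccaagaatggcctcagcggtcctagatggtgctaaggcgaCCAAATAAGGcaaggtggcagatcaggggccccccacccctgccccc
Myl3 upstream: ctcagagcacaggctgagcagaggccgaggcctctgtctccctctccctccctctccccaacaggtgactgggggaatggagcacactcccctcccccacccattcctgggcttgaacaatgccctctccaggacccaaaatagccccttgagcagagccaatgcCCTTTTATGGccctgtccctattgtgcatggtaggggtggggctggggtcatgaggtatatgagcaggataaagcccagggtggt
Myl7 upstream: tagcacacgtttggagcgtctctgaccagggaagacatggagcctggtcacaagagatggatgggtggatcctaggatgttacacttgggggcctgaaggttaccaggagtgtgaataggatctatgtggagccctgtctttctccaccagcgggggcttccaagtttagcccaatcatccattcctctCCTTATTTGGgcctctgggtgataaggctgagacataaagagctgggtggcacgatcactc
Ttn upstream: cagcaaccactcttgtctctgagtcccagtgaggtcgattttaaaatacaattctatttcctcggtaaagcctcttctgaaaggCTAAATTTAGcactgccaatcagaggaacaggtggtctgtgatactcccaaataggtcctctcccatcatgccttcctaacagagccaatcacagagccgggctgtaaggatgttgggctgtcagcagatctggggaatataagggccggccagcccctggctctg

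*Ttn* (chromosome 2, 76534136 to 76812891, minus strand of GRCm39) encodes titin, the spring of the sarcomere, and was among the 15 genes with the largest difference towards heart. Its level was 3836, 4465, 3602 and 3513 CPM in hearts and 2.88, 3.45 and 2.45 CPM in ECs, with a log2 fold change of 10.36 (adjusted p = 3.41e-09, SE 0.29). *Myh6* encodes alpha-myosin, the main motor of the adult mouse heart, and was 21533, 24964, 20464 and 20871 CPM in hearts against 18.4, 56.4 and 20.01 CPM in ECs, with a log2 fold change of 9.44 (adjusted p = 4.96e-07, SE 0.60). Both genes stood far apart between the tissues, and for *Myh6* the EC libraries themselves differed, with EC WT 2 the highest. *Myh6* shares 28.6% of its 31-base sequence words with other genes, among them the related *Myh7*, so its exact level is uncertain. *Actc1*, the cardiac alpha-actin that carries the CArG box above, was 11366, 10938, 9475 and 9370.5 CPM in hearts and 19.3, 59.2 and 26.1 CPM in ECs, with a log2 fold change of 8.20 (adjusted p = 4.28e-07, SE 0.51). *Tnnt2*, the cardiac troponin T that ties troponin to tropomyosin, was 6020.3, 6278, 6324 and 6505 CPM in hearts and 13.3, 52.8 and 20.8 CPM in ECs, with a log2 fold change of 7.76 (adjusted p = 1.10e-06, SE 0.55). Hearts were closely alike in both genes, and EC WT 2 was again above the other EC libraries. The myosin-binding protein *Mybpc3* (log2 fold change 9.68) and the M-band protein *Myom2* (9.54) also had large differences. *Tpm2*, the beta-tropomyosin known from smooth and slow skeletal muscle, was 17.6, 14.7, 14.0 and 11.9 CPM in hearts and 323, 178 and 256.4 CPM in ECs, opposite to the alpha-tropomyosin gene *Tpm1* (7829.9, 8097, 8117 and 8041 and 335, 251 and 310.3 CPM). The other genes called higher in ECs were the light chains *Myl4* and *Myl7*, and *Tnni1* (adjusted p = 0.384, or a log2 fold change of 2.11 and called in heart without EC WT 2) and *Mybphl* (adjusted p = 0.387) were not called.

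The light chains had a ventricular pattern in hearts. *Myl2* (chromosome 5, 122238848 to 122251545, plus strand), the ventricular regulatory light chain, was 6915, 6987, 6883 and 6449 CPM in hearts and 9.13, 83.7 and 21.4 CPM in ECs, with a log2 fold change of 7.48 (adjusted p = 1.99e-05, SE 0.80). *Myl7* (chromosome 11, 5845449 to 5848792, minus strand), the atrial regulatory light chain, was 1.02, 1.69, 0.581 and 1.04 CPM in hearts and 5.51, 9.11 and 3.16 CPM in ECs, with a log2 fold change of -2.43 (adjusted p = 6.04e-04, SE 0.43). Hearts were thus lower than ECs for the atrial chain, with no overlap, although the RNA is described as that of the whole heart. The essential light chains repeated this order. *Myl3*, the ventricular form, was 4290.4, 4472, 4299.7 and 4587 CPM in hearts and 6.56, 36.4 and 11.6 CPM in ECs, with a log2 fold change of 7.92 (adjusted p = 3.09e-06, SE 0.66). *Myl4*, the atrial form, was 0.853, 1.81, 1.03 and 1.38 CPM in hearts and 5.64, 8.48 and 4.11 CPM in ECs, with a log2 fold change of -2.19 (adjusted p = 1.85e-04, SE 0.32). Again every heart was below every EC library for the atrial form. In scaled TPM, *Myl7* was 0.00985 to 0.0282 per 100 *Myl2* in hearts and 70.2, 12.7 and 16.0 per 100 in EC WT 1, 2 and 3. The same ratio of *Myl4* to *Myl3* was 0.0136 to 0.0414 in hearts and 81.6, 24.0 and 34.3 in ECs. The atrial to ventricular ratio was therefore higher in every EC library than in every heart, while *Myl2* per 100 *Tnnt2* was 181 to 207 in hearts and 129, 290.4 and 207 in ECs.

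**Figure D1:**
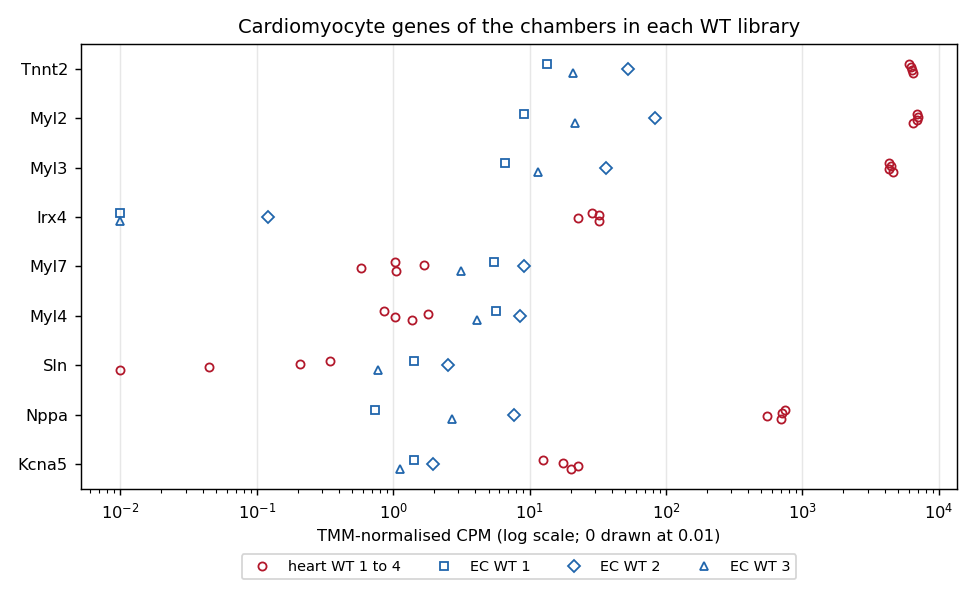
TMM-normalised CPM (log scale, 0 drawn at 0.01) of cardiomyocyte genes, one point per library, with circles for the 4 hearts and squares, diamonds and triangles for EC WT 1, 2 and 3. Hearts are above every EC library for *Myl2* and *Myl3* but below every EC library for *Myl7*, *Myl4* and *Sln*.

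Other atrial markers were read in the same way. *Sln*, encoding the calcium pump regulator sarcolipin, was 0.341, 0.206, 0.0447 and 0 CPM in hearts and 1.42, 2.51 and 0.774 CPM in ECs (log2 fold change of -3.78 (adjusted p = 0.00186, SE 0.79)). *Bmp10*, an atrial growth factor, had 0 counts in all 7 libraries, where 3 counts would be 0.0663 to 0.512 CPM. *Dkk3* was also higher in ECs, at 60.9, 43.6 and 67.6 CPM against 2.56, 3.50, 1.70 and 1.84 CPM in hearts. *Nppa*, the atrial natriuretic peptide gene, did not follow this pattern, being 749.9, 708, 554 and 693 CPM in hearts and 0.734, 7.62 and 2.72 CPM in ECs, and neither did the potassium channel gene *Kcna5* (12.6, 17.7, 22.6 and 19.9 and 1.42, 1.95 and 1.13 CPM). Of 8 atrial markers, 6 were tested, 2 were higher in heart and 4 were higher in ECs. Of the 6 ventricular markers, 5 were higher in heart. *Irx4*, the ventricular transcription factor, was 28.7, 32.2, 22.5 and 32.4 CPM in hearts and 0, 0.121 and 0 CPM in ECs, with a log2 fold change of 9.35 (adjusted p = 7.71e-08, SE 0.45). The exception was *Hey2*, a Notch target also known from arterial ECs, at 6.99, 4.24, 5.37 and 4.76 CPM in hearts and 29.1, 20.9 and 33.9 CPM in ECs. Which chambers went into the RNA was not tested.

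Genes of calcium cycling and excitation separated the tissues as clearly. *Atp2a2*, encoding the pump that refills the calcium store, was 14754, 15924, 15688 and 14322 CPM in hearts and 166, 145 and 119 CPM in ECs, with a log2 fold change of 6.73 (adjusted p = 4.59e-08, SE 0.30). *Pln*, whose product phospholamban restrains that pump, was 7073, 6260.4, 7267 and 7232 CPM in hearts and 5.22, 28.4 and 8.999 CPM in ECs, with a log2 fold change of 8.94 (adjusted p = 1.86e-06, SE 0.69). *Ryr2*, the calcium release channel, was 1909, 2004, 1834 and 1679 CPM in hearts and 5.95, 2.02 and 2.45 CPM in ECs, with a log2 fold change of 9.07 (adjusted p = 9.39e-08, SE 0.45). Hearts were above ECs in each of these, and the EC libraries differed by far more than the hearts for *Pln*. In all, 12 of 15 calcium genes were higher in heart, *Sln* alone was higher in ECs, and *Casq1* and *S100a1* were not called. For ion channels and connexins, 17 of 18 were higher in heart. *Gja3*, a connexin gene with the largest difference towards heart among the genes named, was 25.1, 25.4, 25.8 and 25.0 CPM in hearts and 0, 0.0241 and 0 CPM in ECs, where EC WT 2 held 1 count. The pacemaker channel genes *Hcn4* (18.4, 16.1, 12.7 and 12.2 and 0.131, 0.289 and 0.0663 CPM) and *Hcn2* (22.2, 26.6, 22.5 and 23.9 and 2.23, 0.892 and 0.840 CPM) were higher in heart. The exception was *Gja5*, the connexin 40 of arterial ECs, atria and the conduction system, at 8.87, 15.6, 11.9 and 13.4 CPM in hearts and 104, 166 and 181 CPM in ECs.

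Transcription factors of cardiomyocytes were nearly all higher in heart. Of 17 factors tested, 15 were higher in heart and none in ECs. *Nkx2-5*, a factor that defines cardiomyocytes, was 24.6, 33.8, 23.9 and 48.4 CPM in hearts and 0, 0.362 and 0.0663 CPM in ECs, with a log2 fold change of 7.80 (adjusted p = 1.19e-06, SE 0.56). *Gata4* was 122, 138, 115 and 141 CPM in hearts and 0.708, 2.63 and 1.64 CPM in ECs, with a log2 fold change of 6.27 (adjusted p = 1.88e-07, SE 0.35). Both factors were low in ECs but not absent from EC WT 2 and 3. *Srf*, encoding the factor that binds CArG boxes, differed less (78.5, 74.5, 67.5 and 72.8 and 30.4, 22.1 and 26.2 CPM, log2 fold change 1.48), as did *Mef2a* (2.19). *Hand1* was not tested, with 0 counts in all hearts. Of the 7 natriuretic and cardiac hormone genes, 3 were higher in heart, 1 was higher in ECs and 3 were not called. Beside *Nppa*, *Nppb* (129, 133, 78.8 and 102.5 and 0.105, 0.627 and 0.287 CPM) and *Corin*, the protease that activates the peptides (8.45 on the log2 scale), were higher in heart. *Npr1*, the receptor of the peptides that makes cyclic GMP in vessels, was higher in ECs, at 96.1, 67.6 and 114 CPM against 16.5, 16.8, 14.2 and 16.4 CPM.

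In the pathways of energy metabolism, most nuclear-encoded genes of mitochondria were not called. Over all genes tested, 17.0% were higher in heart and 22.6% in ECs. The counts in heart for fatty acids and the tricarboxylic acid cycle were near that share. Of 24 genes of fatty acid uptake and oxidation, 4 were higher in heart and 0 in ECs (median log2 fold change 0.40). For the tricarboxylic acid cycle the count was 4 of 21 (0.61), or 8 without EC WT 2, and for nuclear-encoded complex I 2 of 36 (0.51), or 6 without EC WT 1 and 15 with an offset for transcript length. By contrast, 13 of 13 mitochondrially encoded genes were higher in heart (1.49). This number was 5 when tested against a fold of 2, and 6 once genes sharing sequence with another were left out. Of 20 genes of glycolysis and glucose uptake, 10 were higher in heart and 2 in ECs. *Idh2*, the mitochondrial isocitrate dehydrogenase, had the largest difference of the cycle, at 2078, 2165, 2007 and 2279 CPM in hearts and 366, 169 and 180.3 CPM in ECs. In the creatine kinase system, which shuttles phosphate from mitochondria to the filaments, *Ckmt2* was 1559, 1700.3, 1685 and 1555 CPM in hearts and 1.08, 7.59 and 1.35 CPM in ECs, with a log2 fold change of 8.92 (adjusted p = 3.78e-06, SE 0.76). *Mb* was 9471, 9620.3, 10117 and 10064 CPM in hearts and 21.8, 77.0 and 26.2 CPM in ECs, with a log2 fold change of 7.88 (adjusted p = 1.14e-06, SE 0.57). EC WT 2 again held the most of both.

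For 24 pairs of related genes, the share of the pair's scaled TPM held by the first gene was taken. In most pairs, though not in all, the first gene is a form known from striated muscle and the second is not. In 21 pairs this share was higher in every heart than in every EC library, in 2 it was lower in every heart, and in 1 the libraries overlapped. In 13 pairs the first gene was called higher in heart and the second higher in ECs. *Cox6a2*, the muscle form of a cytochrome oxidase subunit, held 94.9% to 96.1% of its pair with *Cox6a1* in hearts and 0.333%, 1.20% and 0.682% in EC WT 1, 2 and 3. *Eno3*, muscle enolase, held 91.5% to 92.4% with *Eno1* in hearts and 1.17%, 1.14% and 2.17% in ECs. *Pgam2*, muscle phosphoglycerate mutase, held 94.2% to 94.7% with *Pgam1* in hearts and 1.98%, 3.63% and 4.43% in ECs. In these 3 pairs the tissues used almost entirely different forms. *Slc25a4*, the adenine nucleotide carrier of muscle, held 93.7% to 95.0% with *Slc25a5* in hearts and 40.2%, 39.7% and 44.1% in ECs. *Ldhb*, the lactate dehydrogenase subunit of heart, held 74.4% to 76.0% with *Ldha* in hearts and 51.7%, 31.6% and 37.6% in ECs. Both were mixed in ECs. *Cox7a1* (77.8% to 80.1% in hearts, 66.3%, 58.9% and 63.0% in ECs) and *Cox8b* (89.1% to 90.7% in hearts, 73.6%, 66.7% and 68.2% in ECs), which brown fat also expresses, differed less, and *Cpt1b* overlapped (92.7% to 94.7% in hearts, 95.1%, 90.7% and 85.9% in ECs). *Cox8b* and *Cpt1b* share 56.7% and 76.1% of their 31-base words with another gene, so their counts are uncertain. The reverse order was found for *Hk2* (46.5% to 49.3% in hearts, 72.8%, 73.7% and 64.0% in ECs) and *Got2* (54.0% to 57.3% in hearts, 74.5%, 67.6% and 72.6% in ECs).

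**Figure D2:**
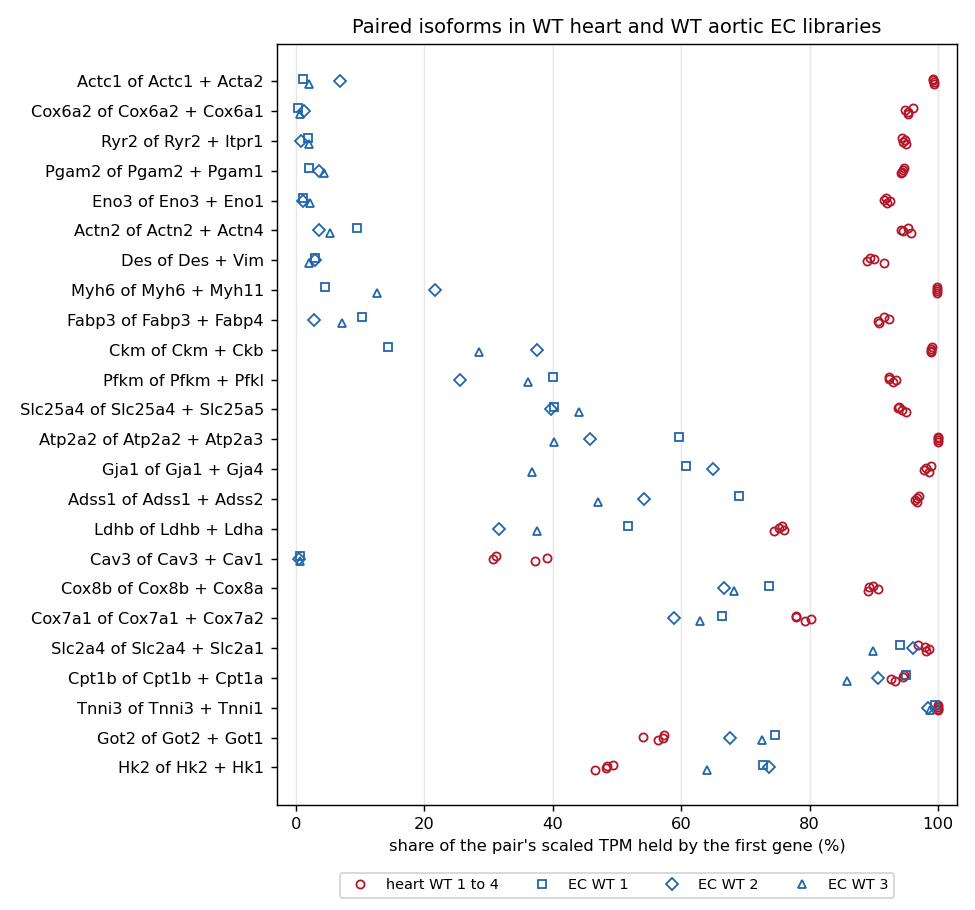
Share (%) of each pair's TMM-scaled TPM held by its first gene, one point per library, with circles for the 4 hearts and squares, diamonds and triangles for EC WT 1, 2 and 3. Hearts lie to the right of all ECs in 21 pairs, and to the left in *Hk2* and *Got2*.

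The EC preparations contained cardiomyocyte transcripts at a low level. As a percentage of the heart mean, the median of the 12 cardiomyocyte markers was 0.141% in EC WT 1, 0.701% in EC WT 2 and 0.228% in EC WT 3. The highest single values were 0.321% for *Ryr2* in EC WT 1, 1.23% for *Myl2* in EC WT 2 and 0.383% for *Tnnc1* in EC WT 3. The summed scaled TPM of these markers was 52244 to 55377 in hearts and 90.5, 458 and 166 in EC WT 1, 2 and 3.

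The label of the EC preparations was checked against endothelial markers, and these were present in all 3. *Pecam1* (chromosome 11, 106543689 to 106641454, minus strand), the platelet endothelial adhesion molecule of EC junctions, was 911, 1106 and 1402 CPM in ECs and 105.4, 111, 107 and 98.1 CPM in hearts, with a log2 fold change of -3.43 (adjusted p = 7.37e-08, SE 0.17). It was therefore 10.8-fold higher in the EC preparations. *Cdh5*, the cadherin that seals EC junctions, was 160.1, 163 and 223 CPM in ECs and 139, 158, 147 and 134 CPM in hearts, with a log2 fold change of -0.34 (adjusted p = 0.0493, SE 0.14), and was not called. *Kdr*, the main receptor for vascular endothelial growth factor (VEGF), was 14.2, 13.2 and 12.03 CPM in ECs and 133, 120.2, 107 and 102 CPM in hearts, with a log2 fold change of 3.14 (adjusted p = 2.97e-08, SE 0.13). Pan-endothelial genes thus differed in direction: 9 of 15 were higher in ECs, 3 (*Kdr*, *Flt1* and *Robo4*) were higher in heart, and *Cdh5*, *Eng* and *Emcn* were not called (*Emcn* was -1.02, and called, without EC WT 2). Per 100 *Pecam1* in scaled TPM, *Cdh5* was 108 to 115 in hearts and 12.1 to 14.2 in ECs, and *Kdr* was 54.1 to 68.5 in hearts and 0.459 to 0.833 in ECs. *Flt1*, a second VEGF receptor, was 78.8, 92.4, 89.4 and 84.4 CPM in hearts and 17.6, 19.5 and 18.6 CPM in ECs, and *Robo4* was 26.6, 23.9, 24.2 and 22.5 and 3.86, 4.07 and 4.69 CPM. In bulk RNA, fewer cells of a type and less RNA per cell cannot be told apart.

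Markers of large arteries were mostly higher in the EC preparations. Of 16, 13 were higher in ECs and only *Hey1* was higher in heart (log2 fold change of 1.49 (adjusted p = 0.00105, SE 0.29)), while *Dll4* and *Sema3g* were not called. *Cytl1*, a secreted protein gene, was 454, 482 and 624 CPM in ECs and 7.16, 6.63, 7.65 and 7.13 CPM in hearts, with a log2 fold change of -6.19 (adjusted p = 2.46e-09, SE 0.16). *Gkn3* was 19.9, 28.7 and 32.7 CPM in ECs and 0.341, 0.453, 0.268 and 0.417 CPM in hearts, with a log2 fold change of -6.15 (adjusted p = 2.78e-08, SE 0.25). *Bmx*, encoding a kinase of arterial endothelium, was 75.7, 64.9 and 106 CPM in ECs and 3.24, 2.22, 1.70 and 2.80 CPM in hearts, with a log2 fold change of -5.11 (adjusted p = 4.73e-08, SE 0.23). These 3 were alike in the EC libraries and near the detection limit only for *Gkn3* in hearts. *Vwf*, encoding the von Willebrand factor that catches platelets, was 582, 621 and 855 CPM in ECs and 74.7, 87.5, 71.3 and 64.8 CPM in hearts, with a log2 fold change of -3.20 (adjusted p = 1.43e-07, SE 0.17). *Bmp4*, a growth factor gene of arterial ECs, was 91.4, 65.5 and 122 CPM in ECs and 3.24, 3.38, 3.04 and 3.55 CPM in hearts. Summed over the list, scaled TPM was 1046, 1076 and 1483 in EC WT 1, 2 and 3 and 66.6 to 74.9 in hearts, so EC WT 3 held the most.

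**Figure D3:**
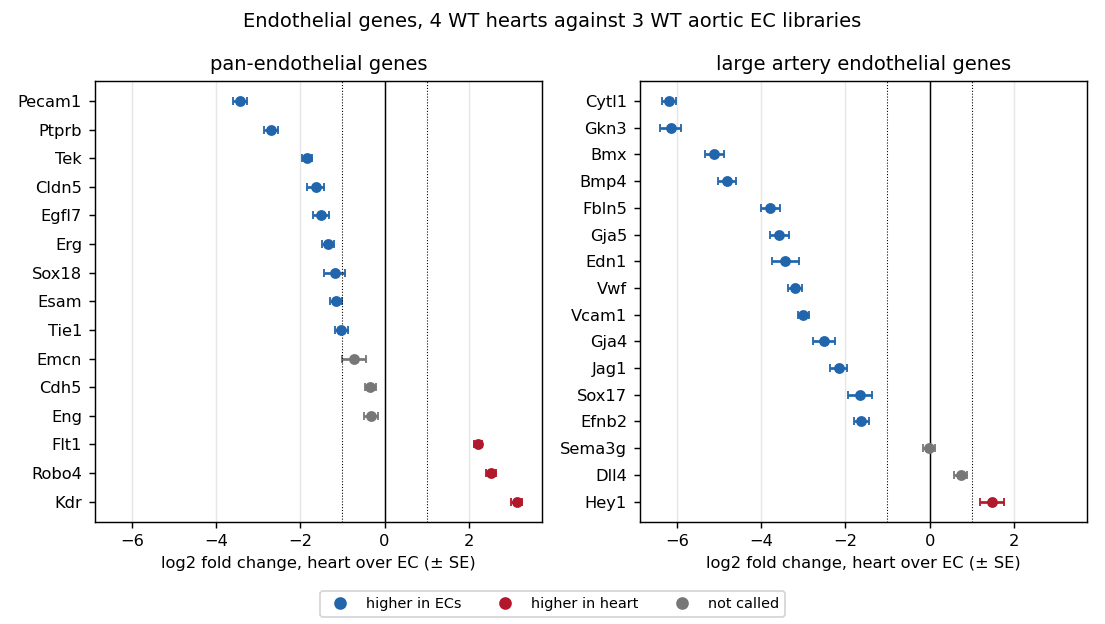
Log2 fold change of heart over EC libraries (edgeR, bars are SE) for pan-endothelial genes on the left and large artery endothelial genes on the right. Dotted lines mark the threshold of 1 in either direction. *Kdr*, *Robo4*, *Flt1* and *Hey1* are the genes called higher in heart.

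Markers of other endothelial beds were mixed. Of 12 capillary genes, 4 were higher in heart and 4 in ECs. *Btnl9*, a capillary marker, was 36.0, 32.03, 35.1 and 35.1 CPM in hearts and 7.74, 5.64 and 4.29 CPM in ECs, and *Tcf15*, a transcription factor of fatty acid transport in ECs, was 4.26, 3.005, 4.11 and 6.47 and 1.55, 1.08 and 1.06 CPM. Both were higher in heart, as were *Lpl* and *Cd36*, which cardiomyocytes and adipocytes also express. The capillary genes higher in ECs included *Fabp4* and *Aqp7*, both also adipocyte genes, and the part of adipocytes in their levels was not tested. Of 6 endocardial genes, 2 were higher in heart (*Ednrb* and *Tmem108*, log2 fold change 2.93), 2 were higher in ECs (*Hapln1*, -3.55, and *Plvap*, at 88.1, 73.9 and 99.1 against 12.96, 15.02, 12.7 and 12.3 CPM) and *Npr3* and *Nfatc1* were not called. Of 7 lymphatic markers tested, 3 were higher in heart, 1 was higher in ECs and 3 were not called. *Prox1*, a lymphatic factor that cardiomyocytes also express, was 143, 102, 92.6 and 115 CPM in hearts and 0.262, 1.35 and 0.464 CPM in ECs. *Lyve1* (-0.96, or -1.08 and called without EC WT 1) and *Flt4* were among those not called. Pericyte genes were mostly higher in heart (5 of 8), among them *Rgs5* (427, 371, 429 and 353 and 155, 81.1 and 78.9 CPM), *Vtn* (18.9, 15.5, 15.3 and 13.8 and 2.20, 3.78 and 1.72 CPM) and *Abcc9*, a channel subunit also found in cardiomyocytes.

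Ligands, enzymes and receptors of vascular signalling split between the tissues. Of the 20 vasoactive genes tested, 11 were higher in ECs and 6 in heart. Enzymes were found on either side. *Nos3*, endothelial nitric oxide synthase, was 87.2, 119.9 and 124 CPM in ECs and 23.9, 26.8, 20.7 and 25.9 CPM in hearts, and *Ace*, angiotensin-converting enzyme, was 502, 447 and 691 and 34.8, 42.1, 38.1 and 28.9 CPM. *Ptgis*, prostacyclin synthase, was 106, 103.4 and 135 CPM in ECs and 5.97, 10.7, 10.2 and 9.05 CPM in hearts, with a log2 fold change of -3.63 (adjusted p = 7.23e-08, SE 0.17). For endothelin, the ligand gene *Edn1* (25.9, 18.0 and 41.0 CPM in ECs, 3.92, 3.38, 2.15 and 1.79 CPM in hearts) and its activating protease *Ece1* (log2 fold change -2.39) were higher in ECs, and the receptor genes *Ednra* (2.71) and *Ednrb* (1.01) were higher in heart, the latter just past the threshold and not called in 11 of 19 alternatives. The inducible nitric oxide synthase gene *Nos2* (3.41) and *Prkg1* (1.42), encoding a kinase activated by cyclic GMP, were higher in heart. *Agtr1a*, the angiotensin receptor, was also higher in heart (63.1, 56.3, 57.6 and 63.4 against 3.36, 3.98 and 4.51 CPM). Of the 20 genes of VEGF, angiopoietin, apelin and neuregulin signalling, 9 were higher in heart and 4 in ECs. *Angpt1*, the ligand that quiets the receptor *Tek*, was higher in heart (2.21), whereas *Angpt2* (-1.59) and *Tek* (-1.84) were higher in ECs. *Apln* and its receptor *Aplnr* were both higher in heart (3.67 and 3.54). In Notch signalling, *Jag1* (-2.16), *Dll1* (-1.99) and *Notch1* (-1.20, or -0.82 without EC WT 3) were higher in ECs, and *Jag2* (2.75) and *Notch3* (1.25) in heart.

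Genes of adhesion and clotting were mostly higher in ECs, 10 of 13 for endothelial activation and adhesion and 10 of 14 for coagulation. *Selp*, the P-selectin that starts leukocyte rolling, was 53.1, 68.3 and 76.2 CPM in ECs and 0, 0.535, 0.403 and 0.542 CPM in hearts, with a log2 fold change of -7.17 (adjusted p = 1.48e-08, SE 0.26). *Vcam1*, which holds leukocytes on the endothelium, was 103.3, 123 and 149 CPM in ECs and 13.5, 16.1, 17.1 and 15.6 CPM in hearts, with a log2 fold change of -2.995 (adjusted p = 6.27e-08, SE 0.14). *Procr*, the protein C receptor that limits clotting on the vessel wall, was 102, 107 and 152 CPM in ECs and 2.56, 1.98, 2.42 and 2.04 CPM in hearts, with a log2 fold change of -5.78 (adjusted p = 6.80e-09, SE 0.18). In each, every EC library was above every heart. *Tfpi*, an inhibitor of tissue factor, was the one coagulation gene higher in heart (99.8, 93.1, 87.2 and 108 CPM against 8.68, 6.94 and 10.8 CPM), and *F3*, tissue factor itself, was higher in ECs (-1.27, or -0.94 without EC WT 3). *Il6* was not tested, with at most 0.0884 CPM in any library. Of 23 shear and immediate early genes, 13 were higher in ECs and none in heart. *Klf2*, induced by laminar flow, was 77.4, 91.2 and 94.4 CPM in ECs and 35.3, 34.99, 31.5 and 41.1 CPM in hearts. For several members EC WT 1 stood above the others, as with *Atf3* (62.5, 23.4 and 23.0 CPM in ECs, 11.4, 10.1, 13.1 and 9.76 CPM in hearts) and *Nr4a1* (298, 63.2 and 81.1 and 72.7, 60.0, 59.1 and 52.2 CPM). Without EC WT 1 the log2 fold change of *Nr4a1* went from -1.28 to -0.23 (adjusted p = 0.228).

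Transcripts of the deeper aortic wall were abundant in the EC preparations. All 10 called genes of the 12 smooth muscle markers were higher in ECs. *Acta2*, smooth muscle actin, was 2172, 1103 and 1647 CPM in ECs and 127, 112, 82.3 and 80.8 CPM in hearts, with a log2 fold change of -4.03 (adjusted p = 6.17e-07, SE 0.27). *Tagln*, a smooth muscle actin-binding protein, was 986, 583 and 874 CPM in ECs and 22.7, 22.2, 28.4 and 25.3 CPM in hearts, with a log2 fold change of -5.04 (adjusted p = 2.60e-08, SE 0.20). *Itga8* was 279, 101 and 182 CPM in ECs and 5.29, 3.95, 4.65 and 4.67 CPM in hearts, with a log2 fold change of -5.36 (adjusted p = 3.29e-07, SE 0.32). In all 3 genes EC WT 1 was the highest and EC WT 2 the lowest of the EC libraries. The markers together held 0.993%, 0.490% and 0.839% of the non-mitochondrial counts in EC WT 1, 2 and 3, which is of the same order as the share of the 31 pan-endothelial and large artery genes (0.783%, 0.805% and 1.23%). Their part in the level of the endothelial genes was not tested.

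The elastic fibre list had 14 of 17 genes higher in ECs and none in heart (median log2 fold change -2.72). *Eln* (chromosome 5, 134731445 to 134776322, minus strand), encoding elastin, was 849, 628 and 974 CPM in ECs and 18.2, 21.6, 21.7 and 18.9 CPM in hearts, with a log2 fold change of -5.34 (adjusted p = 9.33e-09, SE 0.18). *Mfap4*, a microfibril protein gene, was 228, 182 and 259 CPM in ECs and 5.46, 5.02, 7.65 and 4.92 CPM in hearts, with a log2 fold change of -5.27 (adjusted p = 1.54e-08, SE 0.19). *Lox*, which crosslinks elastin and collagen, was 76.2, 53.8 and 87.1 CPM in ECs and 3.92, 2.80, 3.44 and 3.75 CPM in hearts, with a log2 fold change of -4.41 (adjusted p = 3.78e-08, SE 0.19). ECs were uniformly above hearts for these matrix genes. Of 25 basement membrane and collagen genes, 11 were higher in ECs and 4 in heart. The collagen chains *Col1a1* (-3.31), *Col1a2* (-3.23), *Col5a2* (-3.24) and *Col18a1* (-3.34) were on the EC side, and the laminin chain *Lama2* of muscle basement membrane (2.28) and the collagen IV chain *Col4a2* (1.18) on the heart side. Of 12 fibroblast markers, 9 were higher in ECs, including *Pi16* (355, 451 and 611 CPM in ECs, 32.1, 34.2, 33.8 and 29.8 CPM in hearts) and *Dcn* (710.2, 582 and 1141 and 340.3, 299, 355 and 302 CPM), whose log2 fold change of -1.32 was -0.97 without EC WT 3. *Pdgfra*, a receptor of most fibroblasts, was not called (38.6, 23.8 and 44.7 CPM in ECs and 32.4, 29.6, 30.6 and 27.8 CPM in hearts).

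Genes of fat were among those with the largest differences towards the EC preparations. By scaled TPM, *Fabp4* and *Car3* ranked 2 and 3 among nuclear-encoded genes in ECs, and 3 of the 12 most abundant genes there were in the adipocyte lists. Of the 15 genes with the largest difference, 6 were in these lists. *Ucp1* (chromosome 8, 84016647 to 84025085, plus strand), encoding the uncoupling protein that makes heat in brown fat, was 1749, 1264 and 980.1 CPM in ECs and 0, 0, 0.0447 and 0.167 CPM in hearts, with a log2 fold change of -14.22 (adjusted p = 6.80e-09, SE 0.45). In hearts this was 0, 0, 1 and 4 counts, so the size of the fitted difference depends on very few reads. *Adipoq*, the adipocyte hormone adiponectin, was 750.4, 733 and 459 CPM in ECs and 0, 0.535, 0.447 and 0.334 CPM in hearts, with a log2 fold change of -10.64 (adjusted p = 6.79e-09, SE 0.33). *Cfd*, the adipocyte protease adipsin, was 1516, 1461 and 1151 CPM in ECs and 0, 1.77, 1.12 and 0.834 CPM in hearts, with a log2 fold change of -10.27 (adjusted p = 2.52e-08, SE 0.41). *Plin1*, the coat protein of lipid droplets, was 536, 738 and 314 CPM in ECs and 0, 0.576, 0.626 and 0.501 CPM in hearts, with a log2 fold change of -9.99 (adjusted p = 2.92e-08, SE 0.41). Hearts held almost none of these, and EC WT 3 was the lowest EC library in each. *Slc27a2*, a fatty acid transporter gene with 0 counts in all hearts, was 84.5, 54.1 and 29.1 CPM in ECs, at least 250.02-fold higher.

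Of the 8 white adipocyte markers, 7 were higher in ECs and of the 8 brown adipocyte markers, 5. As hearts held almost none of *Ucp1*, *Adipoq*, *Cfd* and *Plin1*, such markers could pass the filter on low counts through ECs alone. The brown markers not called were *Cox7a1*, *Cox8b* and *Cpt1b*, which the heart expresses strongly. Without EC WT 1, *Cox7a1* (1.22) and *Cpt1b* (1.33) were called higher in heart, and without EC WT 3 *Cox8b* (-1.06) was called higher in ECs. *Cidea*, a lipid droplet protein of brown fat, was 1145, 1047 and 721 CPM in ECs and 16.2, 15.5, 16.0 and 14.8 CPM in hearts, with a log2 fold change of -5.96 (adjusted p = 6.90e-09, SE 0.19). *Dio2*, which activates thyroid hormone in brown fat, was 79.5, 128 and 45.1 CPM in ECs and 0.853, 1.07, 1.61 and 2.29 CPM in hearts, with a log2 fold change of -5.74 (adjusted p = 8.95e-07, SE 0.40). *Lep*, the hormone leptin known from white fat, was 30.7, 28.7 and 16.1 CPM in ECs and 0, 0.123, 0 and 0.125 CPM in hearts, with a log2 fold change of -8.25 (adjusted p = 1.60e-07, SE 0.45). Markers of both kinds of fat were thus present in all 3 EC libraries. The 16 markers together held 2.07%, 1.93% and 1.46% of the non-mitochondrial counts in EC WT 1, 2 and 3 and 0.184% to 0.193% in hearts. *Scd1*, the desaturase of fat synthesis, varied far more between EC libraries, at 2446, 16506 and 3900.4 CPM, with EC WT 2 the highest, against 5.63, 10.9, 10.02 and 8.68 CPM in hearts. The receptors of the autonomic nerves also split: *Adrb3*, the receptor known from adipocytes, was 72.4, 93.0 and 46.9 CPM in ECs and 0.171, 0.165, 0.134 and 0 CPM in hearts, and *Adra2a* was 10.3, 16.5 and 28.6 and 0, 0.0412, 0 and 0 CPM. On the heart side were *Adra1b* (37.2, 33.1, 39.9 and 37.8 against 0.341, 0.892 and 0.619 CPM) and *Chrm2*, the muscarinic receptor that slows the heart (215, 193, 213 and 235 against 0.157, 0.434 and 0.420 CPM), while *Adrb1* was not called (adjusted p = 0.171), although without EC WT 1 its log2 fold change was 1.47 (adjusted p = 5.15e-04).

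**Figure D4:**
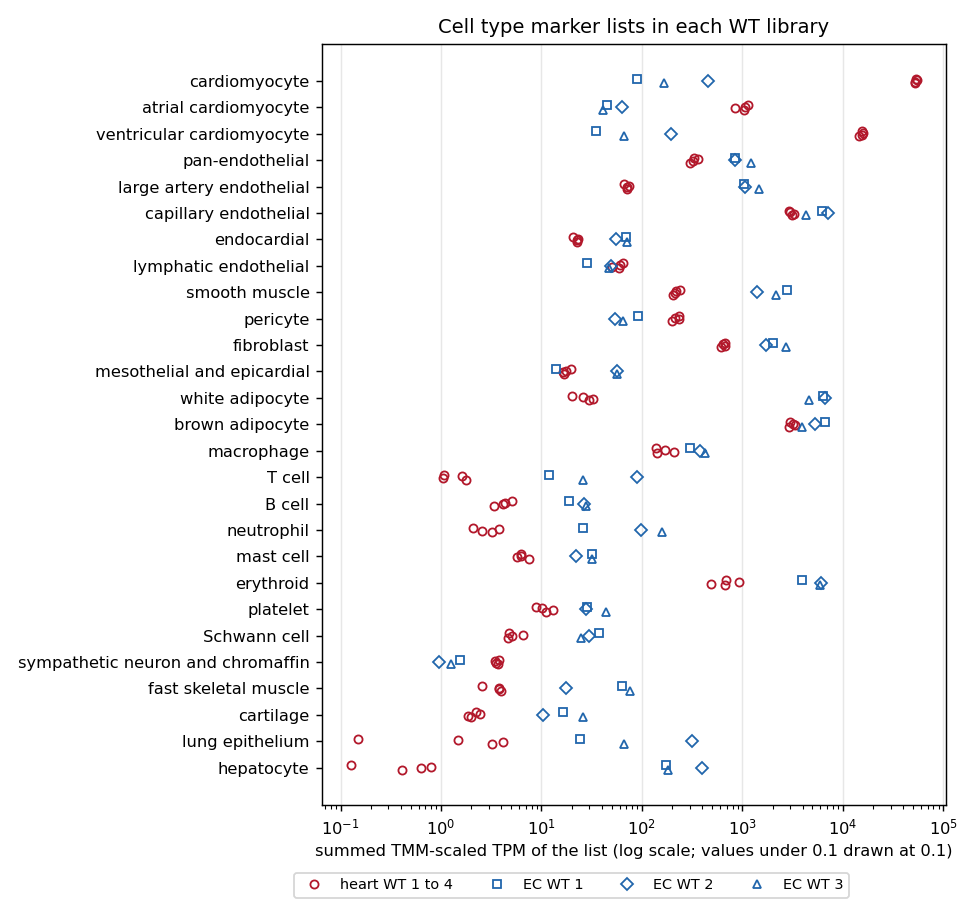
Summed TMM-scaled TPM (log scale) of each cell type marker list, one point per library, with circles for the 4 hearts and squares, diamonds and triangles for EC WT 1, 2 and 3. Every heart is above every EC library in the cardiomyocyte, pericyte, sympathetic and lymphatic lists, and the widest leads of the EC libraries are in the hepatocyte and white adipocyte lists (medians of 182 against 0.517 and 6339 against 27.8). Of the 6 hepatocyte genes only 1, *Cyp2e1*, passed the filter on low counts.

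Blood and immune transcripts were also higher in the EC preparations. All 7 erythroid markers were higher in ECs, for example *Hbb-bs*, adult beta-globin, at 676, 1073 and 1007 CPM in ECs and 114, 158, 87.3 and 119 CPM in hearts. Globin genes share over 50% of their words with their copies, so single globin genes are uncertain, but *Alas2*, the erythroid enzyme of heme synthesis, had the same direction (20.4, 28.5 and 29.8 against 7.16, 5.93, 3.18 and 4.13 CPM). In scaled TPM, *Hba-a2* per 100 *Hbb-bs* was 82.7 to 92.7 in hearts and 87.4 to 95.2 in ECs. The 7 of 7 T cell, 6 of 6 B cell and 5 of 5 tested neutrophil markers were higher in ECs. Hearts held little of these lists, with summed scaled TPM of 1.06 to 1.76, 3.39 to 5.10 and 2.09 to 3.79. A marker could thus pass the filter on low counts through ECs alone. *Cd8a*, a T cell receptor partner, was 4.27, 43.1 and 12.1 CPM in ECs and 0.171, 0.247, 0.537 and 0.292 CPM in hearts, with EC WT 2 the highest. *S100a9*, an abundant neutrophil gene, was 4.88, 19.1 and 34.1 CPM in ECs and 0, 0.535, 0.179 and 0.459 CPM in hearts, with EC WT 3 the highest. Macrophage markers differed less, 6 of 11 being higher in ECs. The count was 2 when tested against a fold of 2, and 2 with the offset for transcript length. *C1qa*, a complement gene of tissue macrophages, was 39.9, 42.4 and 53.1 CPM in ECs and 14.3, 20.6, 24.3 and 16.4 CPM in hearts (log2 fold change -1.23), and *Csf1r* (-0.51) and *Cd68* (-0.94, or -1.06 and called without EC WT 1) were not called.

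Markers of further tissues varied between the EC libraries. Of 10 tested fast skeletal muscle markers 9 were higher in ECs, with summed scaled TPM of 63.5, 17.7 and 75.7 in EC WT 1, 2 and 3 and 2.57 to 3.98 in hearts. *Scgb1a1*, the secretoglobin of airway club cells, was 6.66, 90.7 and 18.7 CPM in ECs and 0, 0.370, 1.12 and 0.834 CPM in hearts, but the alveolar marker *Sftpc* was at most 0.442 CPM. All 3 lung markers tested were higher in ECs, or 5 without EC WT 1. Hearts held little of this list, at 0.149 to 4.13 summed scaled TPM, and *Sftpc*, *Sftpa1* and *Nkx2-1* were not tested. As with the fast skeletal muscle list, a marker could pass the filter on low counts through ECs alone. *Cyp2e1*, on the hepatocyte list, was 278, 644 and 293 CPM in ECs and 0.171, 1.07, 0.939 and 0.584 CPM in hearts, whereas *Alb*, the defining hepatocyte gene, was at most 0.398 CPM. Mesothelial markers such as *Upk3b* were 12.3, 52.6 and 58.7 CPM in ECs and 11.3, 15.1, 12.3 and 13.7 CPM in hearts, with EC WT 1 at the level of hearts. Between EC libraries, the highest over the lowest summed level was 13.01 for the lung list, 7.40 for T cells, 6.14 for neutrophils, 5.07 for cardiomyocytes and 4.27 for fast skeletal muscle, but 1.99 for smooth muscle and 1.44 for white adipocytes. EC WT 1 was the highest EC library in 6 cell type lists, EC WT 2 in 10 and EC WT 3 in 11. The part of these cells in the other differences was not tested.

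Hox genes, which record position along the body axis, divided the tissues without exception among those tested. Of the 35 genes listed, 24 passed the filter on low counts and all 24 were higher in ECs (median log2 fold change -5.44, or -4.06 with genes at 0 in hearts set to their bound). A gene could pass the filter through ECs alone, so this count is read with the 11 that did not pass. *Hoxa5* was 13.6, 10.8 and 11.3 CPM in ECs and 0.171, 0.165, 0.671 and 0.250 CPM in hearts, with a log2 fold change of -5.11 (adjusted p = 9.34e-07, SE 0.36). *Hoxa7* was 13.3, 12.8 and 11.3 CPM in ECs and 0.171, 0.0412, 0.0447 and 0.167 CPM in hearts, with a log2 fold change of -7.02 (adjusted p = 5.67e-08, SE 0.32). *Hoxb9* was 4.35, 3.37 and 9.38 CPM in ECs with 0 counts in all hearts, at least 25.5-fold higher. By paralogue group, numbered from the head end, 12 of 15 genes of groups 1 to 5 and 12 of 15 of groups 6 to 10 were higher in ECs, and none of the 5 of groups 11 to 13 was tested. Every cluster contributed, with 9 of 11 genes of cluster a, 8 of 10 of b, 4 of 7 of c and 3 of 7 of d. All values were low, with at most 13.6 CPM in any library.

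Heme and iron genes include the gene whose loss the wider study examined. *Hmox2* (chromosome 16, 4544216 to 4589816, plus strand) was 46.7, 50.5, 43.8 and 45.7 CPM in hearts and 54.1, 47.7 and 45.7 CPM in ECs, with a log2 fold change of -0.07 (adjusted p = 0.517, SE 0.10). The libraries of the tissues overlapped and the difference did not pass the test, and the gene shares 73.4% of its words with other genes. *Hmox1*, the inducible heme oxygenase, was 2.90, 4.94, 5.28 and 4.71 CPM in hearts and 7.63, 12.5 and 13.2 CPM in ECs, with a log2 fold change of -1.27 (adjusted p = 8.35e-04, SE 0.23). *Blvrb*, which reduces the biliverdin products of heme, was 7.16, 6.75, 6.40 and 7.26 CPM in hearts and 33.7, 34.8 and 34.5 CPM in ECs, with a log2 fold change of -2.32 (adjusted p = 3.35e-08, SE 0.10). Both were higher in every EC library than in every heart, though *Hmox1* was -0.88, and not called, with the offset for length. Of 19 genes on the list 5 were higher in ECs, and *Cpox* and *Fech* of heme synthesis and *Tfrc*, the transferrin receptor, were higher in heart (2.11, 1.07, which was 0.998 without EC WT 3, and 2.03). *Ftl1*, ferritin light chain, was higher in ECs (-2.48) and shares 54.5% of its words.

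Lists not specific to either tissue also held called genes. For cytosolic ribosomal proteins 10 of 26 genes were higher in ECs (median log2 fold change -0.93). Short genes tended towards ECs at large: the median log2 fold change was -0.38 in the 25% of genes with the shortest transcripts and 0.26 in the longest, and with an offset for length 3 of the ribosomal genes were called. With that offset *C1qa* (-0.74), *Klf2* (-0.95), *Notch3* (0.92) and *Col4a2* (0.96) were not called. Of 18 clock genes 3 were higher in heart, *Nr1d2*, *Ciart* and *Bhlhe41*, or 5, with 1 higher in ECs, without EC WT 2. *Nr1d2* (1.02) was just past the threshold and lost its call in 8 of 19 alternatives, among them those without heart WT 3 (0.969), heart WT 4 (0.964) or EC WT 1 (0.934). Of 15 heat shock and stress genes 5 were higher in heart, among them the small heat shock protein *Hspb7* of striated muscle (1893, 2181.9, 1988 and 2073 and 54.1, 43.1 and 57.4 CPM), and 5 in ECs, among them the inducible *Hspa1a* (1.19, 15.4, 5.14 and 3.25 and 78.4, 45.8 and 67.1 CPM), whose copy *Hspa1b* shares most of its sequence.

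**Figure D5:**
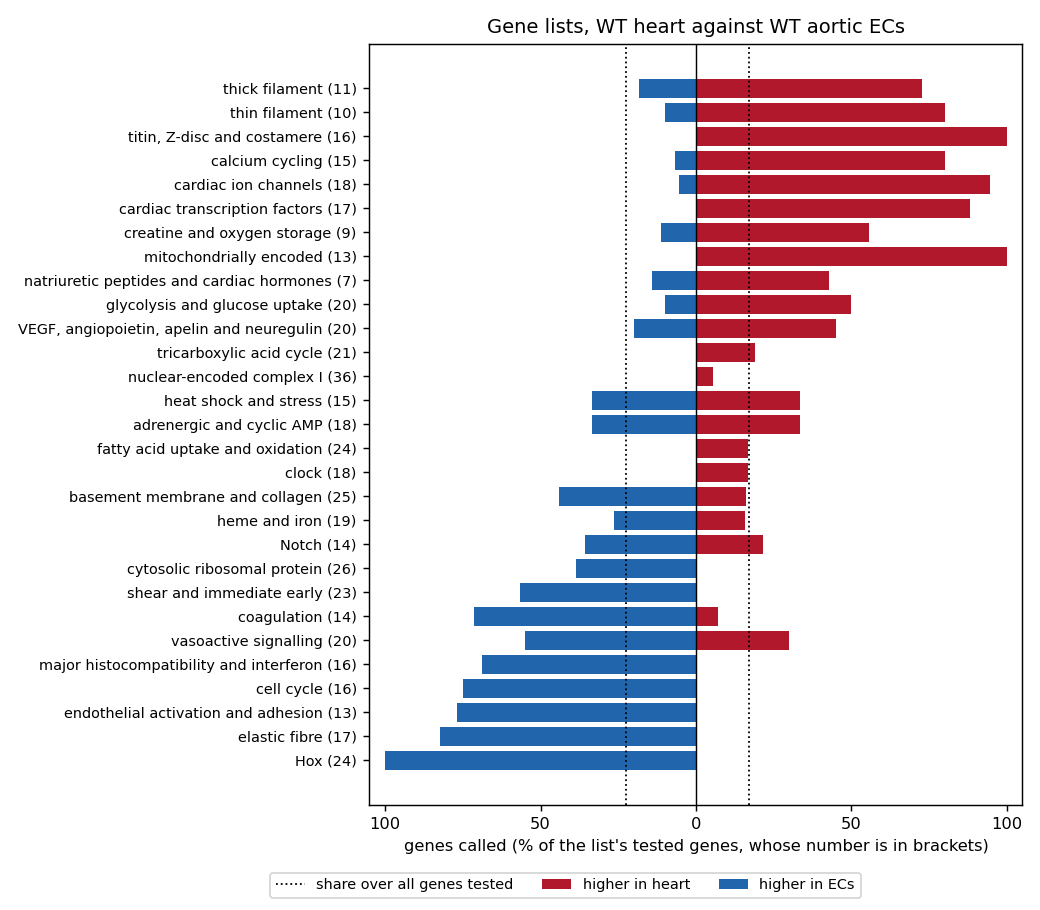
Genes called as a percentage of each list's tested genes (number in brackets), with genes higher in heart to the right and genes higher in ECs to the left. Dotted lines mark the share over all genes tested, 17.0% for heart and 22.6% for ECs. Contraction, calcium and channel lists lie on the heart side, and the Hox, elastic fibre and adhesion lists on the EC side.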

How the data were processed

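RNA-seq of 4 hearts and 3 aortic EC preparations of *Hmox2+/+* mice was analysed. Reads were paired and the kit kept the strand. The authors pseudoaligned them with Kallisto 0.44.0 at default parameters, which do not use the strand, and the deposited estimated counts, one per transcript and library, were neither pooled, filtered nor normalized between libraries. TPM values were deposited beside them, derived by the authors in the same Kallisto step from effective lengths. As index the methods give GENCODE M32. Here 115140 of 118489 listed transcripts (97.2%) were matched by identifier without version to GENCODE M39 (GRCm39), and few lncRNA genes (620) were listed. No count column lacked a sample.

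Per gene, the estimated counts of its transcripts were added up and rounded. Genes kept by filterByExpr (minimum count 10) were TMM-normalized and tested with edgeR 4.0.16 (R 4.3.3). A gene with at least 20% of its 31-base words in another gene was treated as sharing sequence. On simulated counts of this comparison with 200 of 14777 genes changed, edgeR called 190 and 12 unchanged genes, and DESeq2 1.42.0 called 194 and 16. Named genes were members of the hand-written lists and 24 pairs, the 12 most abundant genes per tissue, the 15 with the largest difference per direction among called genes whose libraries did not overlap (at least 20 CPM in the higher group, protein-coding, under 20% shared words), *Hmox2* and Y-linked genes. The members and lists were chosen with earlier results of these data known, so the lists are described by counts, with no set test. A floor of 3 counts, averaged over a group's libraries, stands for 0 in folds written as "at least". The labels give separate samples but name no mouse, so p-values measure the spread between these samples, which may be partly technical. Deviations from the tissue mean correlated at 0.098, 0.011 and 0.040 between same-numbered libraries of the tissues. Between the other pairs the correlations were -0.100 to 0.064. So few values cannot decide whether libraries were paired. Alternatives were DESeq2, other normalizations, filters and gene sets, length-scaled TPM, a length offset (chosen after seeing the data), a fit of all 13 libraries, a replicate block, a test against the fold of 2, other thresholds and leaving out each library. The *Hmox2-/-* libraries enter only the fit of all 13. Some members of the lists are counted but not reported here by name.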

Additional observations from a re-analysis of the deposited data

Results flagged for a closer look

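In the 4 hearts, 274 values were checked for a library far from the other 3, by the gap of the outermost library over the range of the group, and 11 (4.01%) passed Dixon's 95% limit. Chance alone gives about 5%. Heart WT 1 was far below the others in total estimated counts (0.926), in genes detected at equal depth (0.861, 15366 against 15651 to 15697) and in the summed level of fast skeletal muscle markers (0.8294, 2.57 against 3.74 to 3.98 scaled TPM). Heart WT 2 was above the others for heat shock and stress genes (0.864, 3223 against 2727 to 2794 scaled TPM), and below them for *Cpox* (0.921). Heart WT 3 was above the others for endothelial activation and adhesion genes (0.892, 147 against 133 to 135 scaled TPM) and *Hoxa5* (0.831), and below them for *Npr1* (0.85). *Adra2a*, *Il6* and *Sftpc* had a value of 1 because a single heart held any count. Groups of 3 were not checked, so no EC library could be listed.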

How the results depend on the processing

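The number of genes higher in heart was 2194 to 2741 and higher in ECs 2864 to 3716 over the alternatives of normalization, filter, gene set and fit, 2427 to 2674 and 3168 to 3532 when one library was left out, and 1863 and 2373 when tested against the fold of 2. With adjusted p alone the numbers were 4802 and 5231, and with a log2 fold change of at least 2 they were 1222 and 1682. Upper-quartile normalization shifted the median of all genes from -0.06 to -0.18. With the replicate block, a pairing by number that the labels do not state, 2476 and 3171 genes were called and 8 of 13 mitochondrially encoded genes. The heart minus EC difference in the mitochondrially encoded share was 15.4 to 21.1 percentage points and in the share of the 20 most abundant genes 18.1 to 22.7 when one library was left out, with exact p = 0.0667 or 0.1, the smallest these designs allow.

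Of 181 genes named with a test, 150 kept direction and call in each of the 19 alternatives that tested them, and the sign turned for 5, none of them called. The alternative without near-identical genes tested only 161 of the 181, so named genes that share sequence were not checked there. *Casq1* was -0.063 with upper-quartile normalization and -0.19 to 0.54 when one library was left out. *Hmox2* was 0.29 with the length offset and -0.11 to 0.024 when one library was left out (above 0 without EC WT 1). *Ldha* was 0.0026 with length-scaled TPM, 0.014 with all 13 libraries, 0.030 with the block, 0.33 with the length offset and -0.16 to 0.33 when one library was left out (above 0 without EC WT 2). *Npr3* was -0.28 to 0.28 when one library was left out (above 0 without EC WT 1). *Sema3g* was 0.021 with length-scaled TPM, 0.029 with all 13 libraries and -0.12 to 0.13 when one library was left out. The median of the sympathetic list, 1 gene in the main result, was -1.02 with DESeq2 and -1.86 with no filter, where more genes were tested. Of 3191 list counts and medians, 120 moved and 3069 did not, and the causes were not tested. Depth limits low genes most in heart WT 1, with 7268626 estimated counts against 29815090 to 31619776 in the other 6 libraries.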

Other observations

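Genes of antigen presentation and of the interferon response were higher in ECs in 11 of 16 cases and in no case higher in heart. *H2-K1*, a class I presenting molecule, was 384, 683 and 501 CPM in ECs and 72.5, 127, 141 and 83.9 CPM in hearts. *Ifi27l2a*, an interferon-induced gene, had the largest difference of the list, at 361, 209 and 281 CPM in ECs and 4.09, 6.79, 7.11 and 6.17 CPM in hearts. Other interferon-induced genes were highest in EC WT 3, with *Ifit3* at 10.6, 18.9 and 104.8 CPM in EC WT 1, 2 and 3 and 3.92, 6.59, 7.74 and 4.63 CPM in hearts, and *Isg15* at 2.73, 3.13 and 22.7 and 1.02, 1.81, 1.92 and 1.29 CPM.

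Of 16 cell cycle genes, 12 were higher in ECs. *Mki67*, a marker of dividing cells, was 3.30, 38.8 and 12.5 CPM in ECs and 4.43, 3.13, 3.44 and 3.46 CPM in hearts, and *Top2a*, a topoisomerase of dividing cells, was 3.57, 31.9 and 9.42 and 2.73, 2.10, 2.55 and 1.88 CPM. EC WT 2 was the highest in both, and EC WT 1 overlapped the hearts for *Mki67*. EC WT 2 was also the highest library for *Cd8a*, *Scgb1a1* and *Scd1*. *Dbh*, the noradrenaline-making enzyme of sympathetic nerves, was the only sympathetic marker tested and was higher in heart (8.19, 6.87, 6.98 and 6.38 CPM against 0, 0.289 and 0.0221 CPM).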
